A study of Mus musculus with 14 samples.

Results

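The cell-surface receptors for epidermal growth factor (EGF) and fibroblast growth factor (FGF) were followed across GFP-positive cells of the adult mouse dentate gyrus that were sorted for low to high reactive oxygen species (ROS) and are labelled as Nestin-positive precursors. The genes are Egfr, Erbb2, Erbb3 and Erbb4 of the EGF receptor family, and Fgfr1, Fgfr2, Fgfr3 and Fgfrl1 of the FGF receptor family. They were chosen by name, as the rows whose Ensembl identifier maps to these 8 symbols. The rule uses no measured value, although earlier results of these data were known when the family was picked. All 8 were found among the 15119 genes listed, and all 8 passed the filter on low values, which asked for at least 1 CPM, that is reads scaled to a library total of 1000000, in at least 4 libraries.

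The source was dentate gyrus tissue of untreated adult B6.Cg-Tg(Nes-EGFP)1Yamm mice, which carry enhanced GFP under regulatory elements of the Nestin gene. Tissue was digested enzymatically, and cells were sorted on GFP and on dihydroethidium, a dye whose red fluorescence reports superoxide and other oxidants. All classes share the GFP gate and the transgene, and are named here by the dye label: ROS+ (5 libraries), ROS++ (5 libraries) and ROS+++ (4 libraries). Nestin regulatory elements are active in neural stem and progenitor cells but also in other brain cells, pericytes among them, so the gate does not by itself define 1 cell type. Sex, age in days and the number of mice behind a library are not in the labels, and neither is a statement that replicates came from different mice. The spread that each p-value rests on is that between these libraries and may be technical.

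EGF receptors are tyrosine kinases that work in pairs. EGFR and ERBB4 bind ligands and have active kinases, ERBB2 has a kinase but no known ligand of its own, and ERBB3 binds neuregulins but has little kinase activity, so ERBB2 and ERBB3 depend on a partner. FGFR1, FGFR2 and FGFR3 are tyrosine kinases that bind FGFs together with heparan sulphate, whereas FGFRL1 has an FGF-binding outer part and lacks the kinase. Both families feed the RAS and MAP kinase cascade, and EGF and FGF2 are the mitogens in which hippocampal precursor cells are commonly cultured. In the adult brain Egfr is known from activated stem cells and early progenitors, Erbb3 from oligodendrocyte-lineage cells, and Fgfr3 from astrocytes and radial glia.

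Depth ran from 20832009 to 25313902 reads for the ROS+ libraries, 18325361 to 23454022 for ROS++ and 12704227 to 20998589 for ROS+++. Where no read was seen, up to 3 may have been missed, which is 0.119 to 0.236 CPM depending on the library. This floor covers counting error only, since amplified copies cannot be told from separate molecules. Levels are CPM of the library total, given as mean ± SD where averaged. Changes are differences of log2(CPM + 1) with their standard error (SE) from a limma fit over all 14 libraries, which understates the change of genes near 0, and a call needed a p under 0.05 after Benjamini-Hochberg adjustment over all 15102 genes tested. The median change of all genes was -0.03 from ROS+ to ROS++, -0.44 from ROS+ to ROS+++ and -0.34 from ROS++ to ROS+++. Relative log expression (RLE) factors moved these medians by 0.02, 0.40 and 0.37, upper-quartile factors by 0.02, 0.27 and 0.25, and TMM factors by 0.04, 0.34 and 0.29, so changes that involve ROS+++ depend on the scaling by that much.

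The label of precursor cells did not describe all classes equally well. ROS+++ went against it in its neuroblast and mural genes, whose values follow. Its 10 genes of radial glia-like stem cells, however, summed to 1402 to 3178 CPM, against 334 to 535 CPM in ROS+. For Nes the means of ROS+, ROS++ and ROS+++ were 16.6 ± 4.63, 95.5 ± 18.8 and 227 ± 77.7 CPM (n = 5, 5 and 4). The 10 genes of a list for intermediate progenitors and neuroblasts summed to 11983 to 17407 CPM in ROS+, 1004 to 2511 CPM in ROS++ and 35.6 to 215 CPM in ROS+++, where Eomes, Neurod2 and Igfbpl1 stayed under 1 CPM in all libraries. In the opposite direction, 10 genes of mural cells, the pericytes and smooth muscle of vessels, summed to 17.9 to 507 CPM in ROS+, 7207 to 22423 CPM in ROS++ and 49264 to 56664 CPM in ROS+++, led by Vtn and Rgs5. Nes was thus highest where the mural list was highest, and its presence in ROS+++ does not by itself mark neural precursors. Not every gene of the neuroblast list followed its sum. Eomes averaged 46.6 ± 12.7, 68.8 ± 14.2 and 0.179 ± 0.0437 CPM in ROS+, ROS++ and ROS+++, with its highest mean in ROS++. No listed marker of any of the lists was at 0 in all libraries of a class. The leptomeningeal list, led by Pdgfra and Slc6a13, summed to 941 to 1453.6 CPM in ROS+, 1114 to 1997 CPM in ROS++, and 669 to 1199 CPM in ROS+++. Pdgfra, also a member of the oligodendrocyte precursor list, made up nearly all of this sum in ROS+, as 1450.3 of 1453.6 CPM in replicate 2. In ROS+++ it held little of the sum, from 209.7 of 1199 CPM in replicate 1 to 5.57 of 777 CPM in replicate 3. The other genes of the leptomeningeal list together were thus higher in ROS+++ than in ROS+. In such bulk samples, fewer cells of a type and less RNA per cell cannot be told apart.

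**Figure D1:**
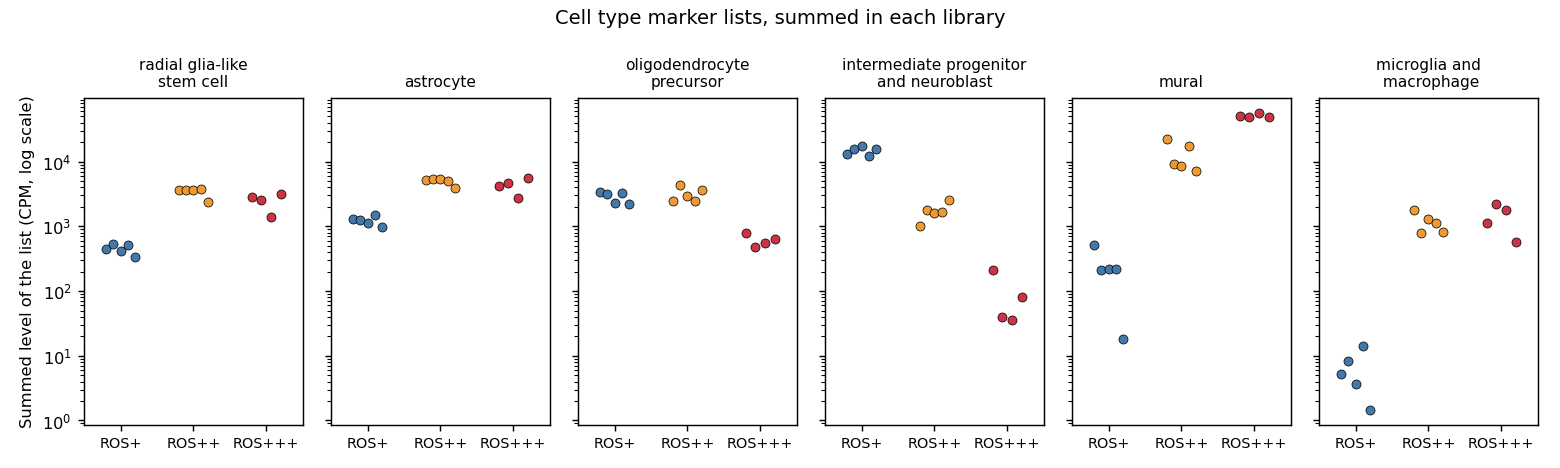
Summed level of 6 cell type marker lists in each library (points), in CPM on a log axis, by ROS class. The sum of the neuroblast genes was highest in ROS+, that of the mural genes in ROS+++, and the sum of the oligodendrocyte precursor genes was lowest in ROS+++.

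Every receptor gene differed between the classes. The limma F-test for any difference called 8 of 8, against 61.5% of all genes tested. Between ROS+ and ROS++, 5 of 8 were called, 4 higher and 1 lower, where 29.6% of all genes were called (16.4% higher and 13.2% lower). For ROS+++ against ROS+ the test called 7 of 8, 4 higher and 3 lower, against 59.2% of all genes (19.2% higher and 40.0% lower). For ROS+++ against ROS++ it called 4 of 8, 1 higher and 3 lower, against 39.1% of all genes (9.89% higher and 29.2% lower). The median change of the 8 genes was 1.12, 0.29 and -1.02 in these comparisons. All libraries of one class lay above all libraries of the other for 3, 4 and 3 of the 8 genes, and for 23.0%, 50.0% and 27.0% of all genes. The 3 comparisons share their classes, so they are not independent of each other. With 8 genes these shares are a description, and the first count is the least stable, at 3 calls without ROS+ replicate 2, 3 or 5 or without ROS++ replicate 1 or 3, and 6 without ROS++ replicate 5, ROS+++ replicate 1 or ROS+++ replicate 4.

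**Figure D2:**
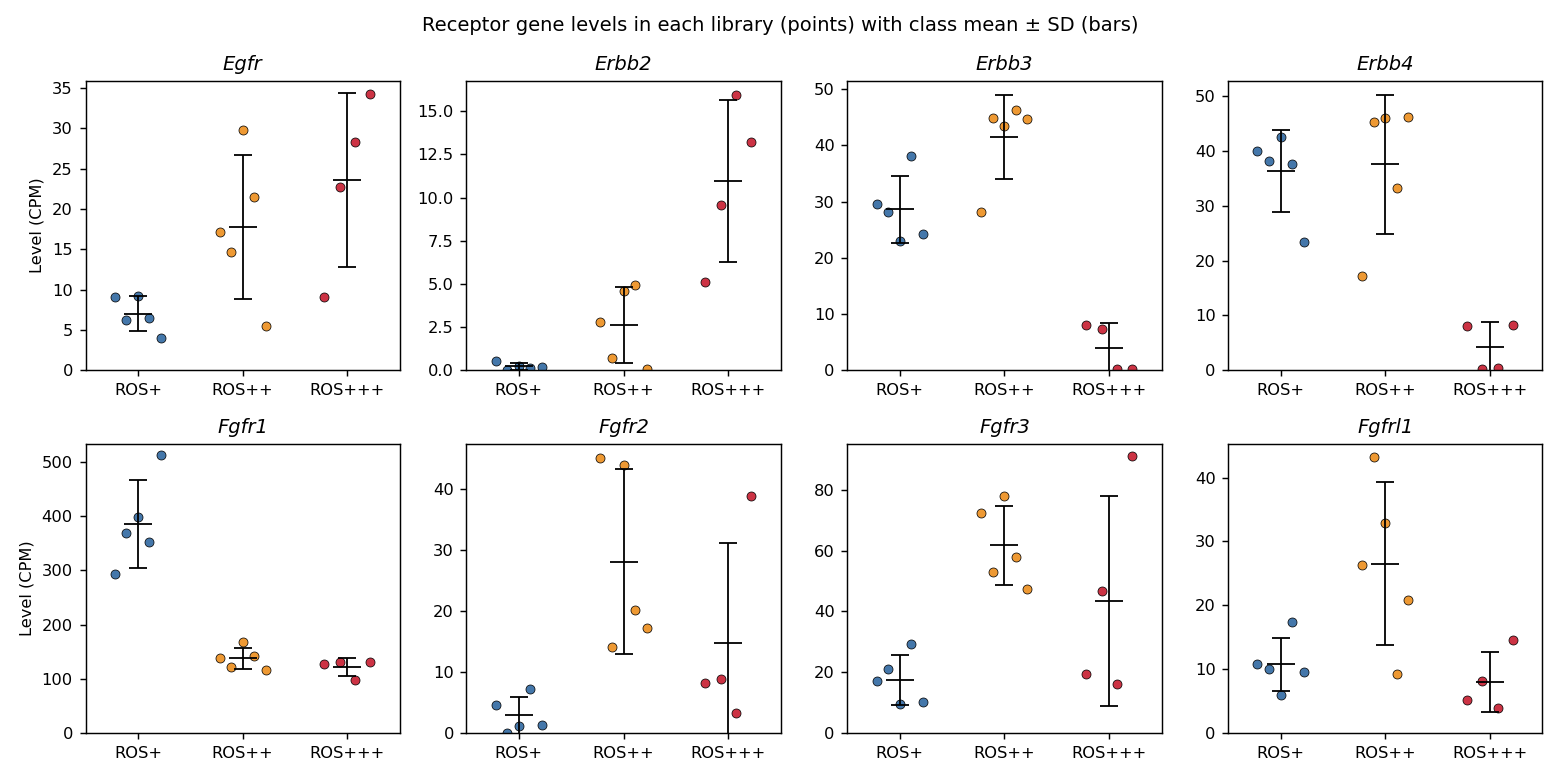
Level of each receptor gene in CPM (linear axis, own scale per gene) in the 14 libraries (points), with class mean and SD (bars; lower bars that would pass below 0 end at the axis). By class mean, Egfr and Erbb2 were highest in ROS+++, Erbb3 and Erbb4 lowest there, Fgfr1 was highest in ROS+, and Fgfr2, Fgfr3 and Fgfrl1 were highest in ROS++.

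Egfr (ENSMUSG00000020122; chromosome 11, 16752203 to 16918158, plus strand, GRCm38) was lowest in ROS+ and rose towards ROS+++. Its levels were 9.13, 6.24, 9.19, 6.44 and 3.99 CPM in the ROS+ libraries, 17.2, 14.6, 29.8, 21.5 and 5.51 CPM in ROS++, and 9.07, 22.7, 28.3 and 34.2 CPM in ROS+++. Of the 9 libraries with more ROS, 7 lay above every ROS+ library, and the exceptions were ROS++ replicate 5 and ROS+++ replicate 1. The means were 6.996 ± 2.19, 17.7 ± 8.92 and 23.6 ± 10.8 CPM. The change from ROS+ to ROS+++ was called, at 1.53 ± 0.44 (SE) with an adjusted p of 0.00624. Between ROS+ and ROS++ the change of 1.11 ± 0.41 fell just short, with an adjusted p of 0.0519. It passed without ROS++ replicate 5 (1.44, adjusted p = 0.00645), ROS+++ replicate 1 (adjusted p = 0.0303) or ROS+++ replicate 4 (adjusted p = 0.04998), and with RLE factors, TMM factors or only these classes in the fit (adjusted p = 0.0499, 0.0465 and 0.0412), in a range of 0.00645 to 0.138 over all alternatives. ROS++ and ROS+++ overlapped and were not distinguished, with a change of 0.42 ± 0.44 and an adjusted p of 0.472.

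Erbb2 (ENSMUSG00000062312; chromosome 11, 98412470 to 98437716, plus strand), the partner receptor without a ligand, was at the limit of detection in ROS+ and clearly present in ROS+++. The ROS+ libraries held 0.553, 0, 0.223, 0.128 and 0.188 CPM, which is 14, 0, 5, 3 and 4 reads. ROS++ was uneven, at 2.78, 0.698, 4.56, 4.96 and 0.0546 CPM, so that replicate 5 had 1 read where replicate 3 had 107. All ROS+++ libraries, at 5.11, 9.57, 15.95 and 13.2 CPM, lay above all others. Erbb2 rose by 3.21 ± 0.48 from ROS+ to ROS+++ (adjusted p = 2.00e-05) and by 1.92 ± 0.48 from ROS++ to ROS+++ (adjusted p = 0.00431). With the deposited log2 values, whose prior is smaller, the first of these changes was 5.65, and with limma-voom 5.91. The difference of 1.29 ± 0.46 between ROS++ and ROS+ was called (adjusted p = 0.0406), but not with limma-voom (3.06, adjusted p = 0.106) and not when leaving out ROS+ replicate 2, 3, 4 or 5 or ROS++ replicate 1, 3 or 4 (changes of 1.04 to 1.30 and adjusted p of 0.0711 to 0.109), and its adjusted p ranged from 0.00519 to 0.109 over all alternatives. An exon of Erbb2 overlaps Mien1 on the opposite strand, and the libraries carry no strand information, so reads of the overlap cannot be assigned. Mien1 moved the other way, with 55.5 to 69.7 CPM in ROS+, 39.1 to 50.3 CPM in ROS++ and 20.2 to 33.2 CPM in ROS+++.

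Erbb3 (ENSMUSG00000018166; chromosome 10, 128567523 to 128589652, minus strand), the neuregulin receptor with little kinase activity, was well expressed in ROS+ and ROS++ and nearly lost in ROS+++. It reached 29.5, 28.1, 22.97, 38.1 and 24.3 CPM in ROS+ and 28.1, 44.9, 43.4, 46.3 and 44.6 CPM in ROS++. In ROS+++ it fell to 8.07, 7.41, 0.143 and 0.236 CPM, so that replicates 3 and 4 held 3 reads each and all 4 libraries lay below all others. The change was -3.18 ± 0.52 against ROS+ (adjusted p = 4.93e-05) and -3.70 ± 0.52 against ROS++ (adjusted p = 2.69e-05). The ROS++ minus ROS+ change was 0.52 ± 0.49 and was not called (adjusted p = 0.466).

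Erbb4 (ENSMUSG00000062209; chromosome 1, 68032186 to 69108059, minus strand), a neuregulin receptor with an active kinase, was likewise low in ROS+++. Its levels were 40.1, 38.2, 42.6, 37.6 and 23.5 CPM across ROS+, 17.2, 45.3, 46.00, 33.3 and 46.3 CPM across ROS++, and 8.11, 0.196, 0.333 and 8.19 CPM in ROS+++. All ROS+++ libraries lay below all others, and replicates 2 and 3 held 4 and 7 reads. The ROS+++ libraries with a remainder were not the same for the 2 genes: replicates 1 and 2 for Erbb3, replicates 1 and 4 for Erbb4. Erbb4 changed by -3.43 ± 0.55 against ROS+ and by -3.42 ± 0.55 against ROS++ (adjusted p = 3.54e-05 and 9.05e-05). ROS+ and ROS++ did not differ beyond their spread, with a change of -0.01 ± 0.51 (adjusted p = 0.992) whose sign turned with RLE, upper-quartile and TMM factors.

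Markers of oligodendrocyte precursors, except Cspg4, had their lowest class mean in ROS+++, as Erbb3 and Erbb4 did. The list of 8 such genes summed to 2241 to 3383 CPM in ROS+, 2417 to 4368 CPM in ROS++ and 487 to 784 CPM in ROS+++, with none at 0 throughout a class. Cspg4 went the other way, with means of 199 ± 38.3, 312 ± 44.3 and 472 ± 44.1 CPM in ROS+, ROS++ and ROS+++. It thus held most of what was left of the list in ROS+++. Pdgfra, the receptor that defines these cells, stood at 938 to 1450.3 CPM in ROS+, 849 to 1639.9 CPM in ROS++, and 209.7, 22.8, 5.57 and 79.9 CPM in ROS+++ replicates 1 to 4. Gpr17, a receptor of committed precursors, stood at 43.5, 0.687, 0.952 and 25.4 CPM in these 4 libraries. Erbb4 was likewise highest in replicates 1 and 4, but Erbb3 was not: replicate 2 held 7.41 CPM of Erbb3 with little Gpr17, and replicate 4 held 0.236 CPM of Erbb3 with more. Other lists were lowest in ROS+++ too. Myelinating oligodendrocyte genes, Mbp among them, summed to 1965 to 5462 CPM in ROS+, 1978 to 10519 CPM in ROS++, and 496 to 656 CPM in ROS+++. Cell cycle genes, led by Pcna and Top2a, summed to 148 to 435 CPM in ROS+, 552 to 1031 CPM in ROS++, and 97.7 to 186 CPM in ROS+++, so that this list overlapped between ROS+ and ROS+++. Inhibitory neurons are another cell type known for Erbb4, but only 3 of the 10 markers of their list were among the genes listed, led by Gad1 and Npy. Npy averaged 2.60 ± 1.64, 6.61 ± 4.05 and 0.0726 ± 0.0839 CPM in ROS+, ROS++ and ROS+++, with its highest mean in ROS++, unlike Gad1. Gad1 ranged from 27.3 to 55.97 CPM in ROS+ and from 0.1905 to 6.300 CPM in ROS+++, and stood at 5.66, 46.4, 9.76, 24.6 and 36.5 CPM in ROS++ replicates 1 to 5. Erbb4 in the same ROS++ libraries was at 17.2, 45.3, 46.00, 33.3 and 46.3 CPM. Both genes were lowest in replicate 1, while in replicate 3 Erbb4 was high and Gad1 low. Egfr and Erbb2 moved with other lists: mural markers as given above, endothelial markers (led by Emcn and Ly6c1) from 62.8 to 233 CPM in ROS+ to 349.5 to 597 CPM in ROS+++, and microglia and macrophage markers (led by Lyz2 and Ctss) from 1.45 to 13.98 CPM in ROS+ to 796 to 1760.4 CPM in ROS++ and 577 to 2203 CPM in ROS+++. ROS++ replicate 5, with the lowest Egfr and Erbb2 of its class, also had the lowest sums of its class for 5 lists: mural (7207 CPM), endothelial (22.5 CPM), radial glia-like stem cell (2361 CPM), astrocyte (3892 CPM) and myelinating oligodendrocyte (1978 CPM). The stem cell and astrocyte lists were also higher in ROS++ and ROS+++ than in ROS+, with the values given beside Fgfr2 and Fgfr3. Within ROS+++ the order was mixed. Replicate 1, with the lowest Egfr and Erbb2, had the highest endothelial sum (597 CPM). Replicate 4, with the highest Egfr, had the lowest mural and microglia sums (49264 and 577 CPM). Replicate 3, with the highest Erbb2, had the highest mural sum (56664 CPM). The part of these cells in the receptor values was not tested.

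The promoters of Egfr and Erbb2, which rose towards ROS+++, are shown with that of Erbb4, which fell, because these genes moved in opposite directions within 1 family. RefSeq promoter sequences matched 6 of the 8 receptor genes. Each line gives the 250 bases before the transcription start on GRCm38.p6, 5′ to 3′ on the gene's strand: chr11:16751953-16752202 on the plus strand for Egfr, chr11:98412234-98412483 on the plus strand for Erbb2 and chr1:69108060-69108309 on the minus strand for Erbb4. Capitals mark matches, on either strand, to 4 motifs: the GC box GGGCGG, the SOX core ATTGTT, the ETS core CCGGAA and the TATA box TATAAA.
Egfr: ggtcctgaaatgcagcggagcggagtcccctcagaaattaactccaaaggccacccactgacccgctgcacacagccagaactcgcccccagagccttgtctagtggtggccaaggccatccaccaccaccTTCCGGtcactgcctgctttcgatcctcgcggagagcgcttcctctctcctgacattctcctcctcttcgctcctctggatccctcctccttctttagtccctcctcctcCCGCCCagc
Erbb2: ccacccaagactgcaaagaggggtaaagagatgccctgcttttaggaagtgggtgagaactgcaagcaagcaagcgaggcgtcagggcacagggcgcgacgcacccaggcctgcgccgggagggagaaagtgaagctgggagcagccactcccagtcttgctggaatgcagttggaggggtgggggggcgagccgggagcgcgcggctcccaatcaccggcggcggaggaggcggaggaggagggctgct
Erbb4: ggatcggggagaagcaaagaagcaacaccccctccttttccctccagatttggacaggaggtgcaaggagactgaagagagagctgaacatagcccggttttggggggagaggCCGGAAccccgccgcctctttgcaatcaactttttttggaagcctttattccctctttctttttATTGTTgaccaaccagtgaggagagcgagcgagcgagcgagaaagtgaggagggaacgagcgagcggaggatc
The Egfr window held 1 GC box and 1 ETS core, the Erbb4 window 1 SOX core and 1 ETS core, and the Erbb2 window none of the 4, and no printed match overlapped another. Over all 32851 promoters of the same length, 32.7% held a GC box, 9.42% a SOX core, 12% an ETS core and 12.4% a TATA box. Base composition ran from 54% GC for Erbb4 to 60.8% for Egfr and 66% for Erbb2, against a median of 52.4%. A match describes these letters and is not evidence of a bound site.

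The composition of the EGF receptor family turned over between the classes. Divided by exon length, so that genes can be compared, Erbb3 and Erbb4 together made up 92.1 ± 2.24% of the family's level in ROS+ (n = 5), 82.7 ± 9.15% in ROS++ (n = 5) and 22.4 ± 22.5% in ROS+++ (n = 4). Egfr and Erbb2 held the remainder, 7.86%, 17.3% and 77.6%. ROS+++ varied most, from 47.1% Egfr and Erbb2 in its lowest library to 99.1% in its highest, whereas the ROS+ libraries ran from 5.94 to 10.5%, so ROS+ and ROS+++ did not overlap. The summed level of the family varied less than its make-up: 8.36 ± 1.35 CPM per kb in ROS+, 12.0 ± 2.40 CPM per kb in ROS++ and 5.19 ± 1.05 CPM per kb in ROS+++. Shares of a family within a library do not depend on the scaling between libraries.

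**Figure D3:**
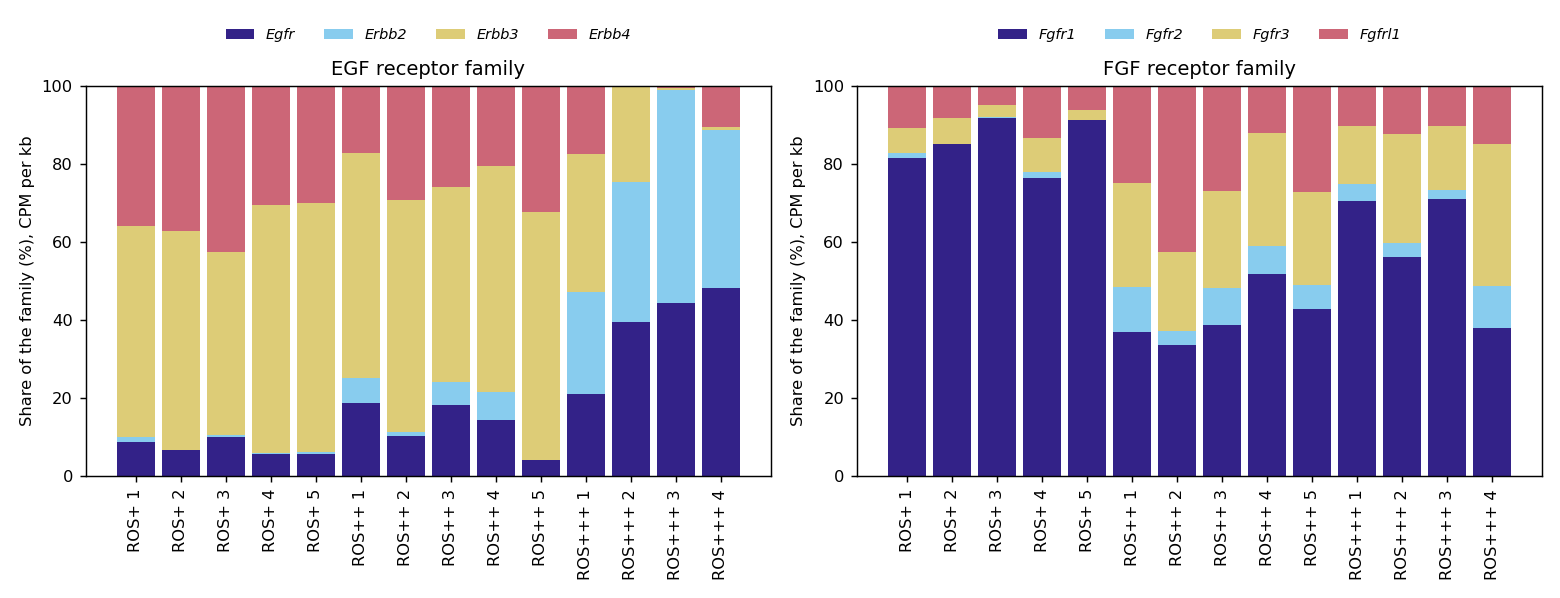
Share of each gene in the level of its receptor family, in percent of CPM per kb of exon, for each library (stacked bars). Erbb3 and Erbb4 filled most of the ROS+ and ROS++ bars on the left and Egfr with Erbb2 most of 3 of the 4 ROS+++ bars, and Fgfr1 filled over 76% of every ROS+ bar on the right.

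Fgfr1 (ENSMUSG00000031565; chromosome 8, 25513654 to 25575718, plus strand), a receptor for FGF2 among others, had the highest class mean of the 8 per length in every class and was lower in both classes with more ROS. The libraries stood at 293, 369.8, 398, 353 and 513 CPM for ROS+, 138, 121, 168, 143 and 117 CPM for ROS++, and 127, 131, 97.1 and 131 CPM in ROS+++. Every ROS+ library lay above every other library. Against ROS+ the change was -1.47 ± 0.15 in ROS++ (adjusted p = 5.66e-07) and -1.64 ± 0.15 in ROS+++ (adjusted p = 7.12e-08), a mean level 2.81 and 3.17 times lower. ROS++ and ROS+++ were not distinguished, with a change of -0.18 ± 0.15 (adjusted p = 0.390) that became positive with RLE, upper-quartile and TMM factors. The neuroblast list moved in the same direction, and its most abundant gene Sox11 covered 6736 to 11111 CPM in ROS+, 750.0 to 1736 CPM in ROS++, and 13.4 to 123 CPM in ROS+++. Between ROS++ and ROS+++ the Fgfr1 libraries overlapped, whereas those of Sox11 did not. The part of neuroblasts in the Fgfr1 values was not tested.

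Fgfr2 (ENSMUSG00000030849; chromosome 7, 130162451 to 133123350, minus strand) was low in ROS+ and highest in ROS++. It stood at 4.58, 0, 1.16, 7.29 and 1.27 CPM in ROS+, at 45.1, 14.1, 43.96, 20.2 and 17.3 CPM in ROS++, and at 8.11, 8.88, 3.29 and 38.96 CPM in ROS+++. ROS+ and ROS++ did not overlap, and in ROS+++ a single library, replicate 4, held most of the signal. The rise from ROS+ to ROS++ was 3.14 ± 0.60 (adjusted p = 0.000675). Between ROS+ and ROS+++ it was 1.91 ± 0.64 (adjusted p = 0.0159), 1.30 without ROS+++ replicate 4 (adjusted p = 0.0791), 3.02 with the deposited log2 values and 2.96 with limma-voom (adjusted p = 0.0514), with adjusted p of 0.00535 to 0.0791 over all alternatives. Between ROS++ and ROS+++ the change of -1.23 ± 0.64 was not called (adjusted p = 0.140), while it reached -1.84 once ROS+++ replicate 4 was left out and was then called (adjusted p = 0.0252, in a range of 0.0252 to 0.393). Exons annotated to Fgfr2 overlap Ctbp2 on the same strand, so reads there could be counted for either gene. Ctbp2 itself ranged only from 20.3 to 49.98 CPM over the 14 libraries.

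Fgfr3 (ENSMUSG00000054252; chromosome 5, 33721674 to 33737068, plus strand) followed a similar course at higher levels. It reached 16.99, 21.03, 9.499, 29.2 and 10.2 CPM across ROS+, 72.4, 52.9, 77.98, 57.9 and 47.5 CPM across ROS++, and 19.5, 46.9, 16.1 and 91.1 CPM in ROS+++. All ROS++ libraries lay above all ROS+ libraries, while ROS+++ spanned both classes. It rose by 1.86 ± 0.39 from ROS+ to ROS++ (adjusted p = 0.00156). The rise of 1.05 ± 0.42 from ROS+ to ROS+++ was called (adjusted p = 0.0381) but rested on few libraries: it was 0.59 without ROS+++ replicate 4 (adjusted p = 0.188), and not called without ROS+++ replicate 2 or ROS+ replicate 1, 3 or 5 either (adjusted p of 0.0538 to 0.107). Limma-voom and a fit of these classes alone did not call it (adjusted p = 0.0883 and 0.0727), in a range of 0.00544 to 0.188 over all alternatives. ROS+++ minus ROS++ was -0.81 ± 0.42 and not called (adjusted p = 0.138), and it was called once ROS+++ replicate 4 was left out (-1.27, adjusted p = 0.0134) or with limma-voom (-0.99, adjusted p = 0.0414, in a range of 0.0134 to 0.487).

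Fgfrl1 (ENSMUSG00000008090; chromosome 5, 108692382 to 108706924, plus strand), the receptor without a kinase, was highest in ROS++ and low on both sides. It stood at 10.8, 10.1, 5.89, 17.4 and 9.62 CPM in ROS+, at 26.3, 43.3, 32.9, 9.25 and 20.8 CPM in ROS++, and at 5.15, 8.097, 3.95 and 14.5 CPM in ROS+++. All 3 pairs of classes overlapped, and ROS++ replicate 4 was the only ROS++ library within the range of ROS+ or ROS+++. Fgfrl1 fell from ROS++ to ROS+++ by 1.61 (SE 0.43, adjusted p = 0.00635). The rise of 1.14 ± 0.41 from ROS+ to ROS++ was called (adjusted p = 0.0413) but not with the deposited log2 values (adjusted p = 0.0552), nor without ROS+ replicate 1, 2, 3 or 5 or ROS++ replicate 1, 2 or 3 (changes of 0.93 to 1.16 and adjusted p of 0.0632 to 0.111), in a range of 0.00842 to 0.111 over all alternatives. ROS+++ and ROS+ were not distinguished, at -0.47 ± 0.43 (adjusted p = 0.363).

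Astrocyte and radial glia markers moved with Fgfr2 and Fgfr3. The 9 astrocyte genes summed to 959 to 1472 CPM in ROS+, 3892 to 5372 CPM in ROS++ and 2724 to 5483 CPM in ROS+++, and the 10 genes of radial glia-like stem cells to 334 to 535 CPM, 2361 to 3734 CPM and 1402 to 3178 CPM. None of these genes was at 0 throughout a class. ROS+++ replicate 4, with the highest Fgfr2 and Fgfr3 of its class, also had the highest sums of its class for both lists, 5483 and 3178 CPM, and the lowest depth of all libraries. Replicate 3, with the lowest Fgfr2, Fgfr3 and Fgfrl1 of the class, had the lowest sums, 2724 and 1402 CPM. Replicate 1 did not follow this order: its sums of 4241 and 2807 CPM lay far above all ROS+ libraries, while its Fgfr3 of 19.5 CPM lay within the ROS+ range and its Fgfr2 was 8.11 CPM. Slc1a3 and Slc1a2 led the astrocyte list, and Aldoc and Thrsp the stem cell list. Their part in the receptor values was not tested.

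**Figure D4:**
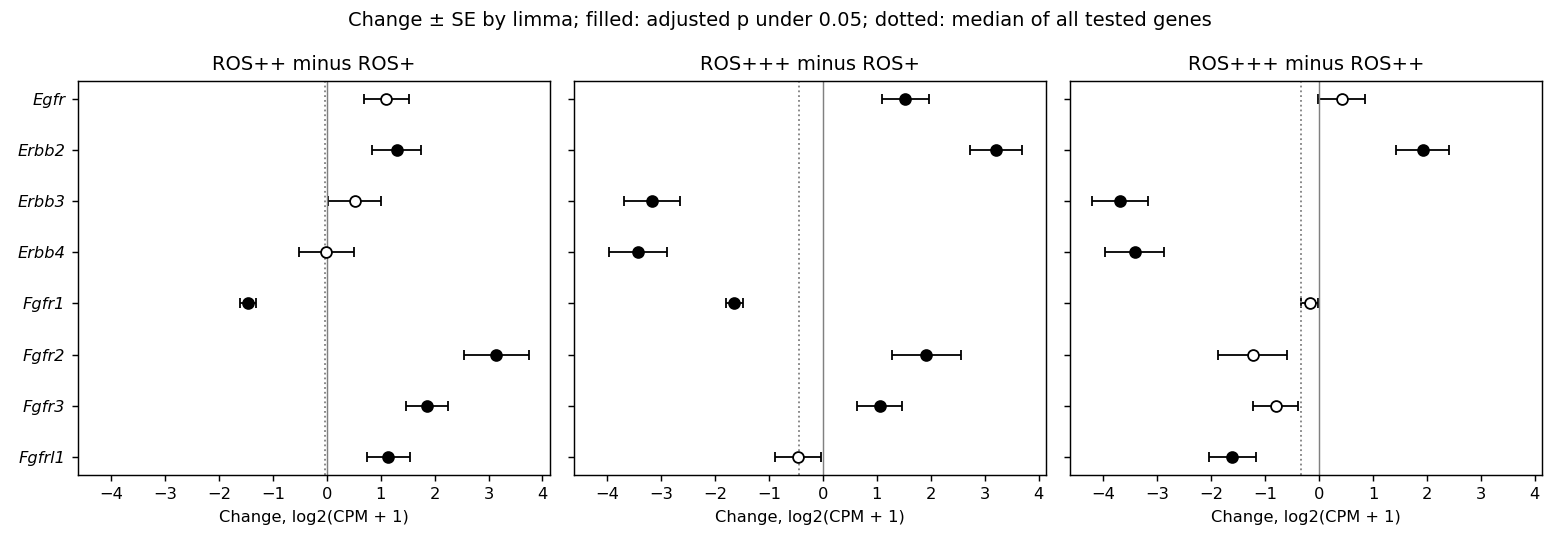
Change of each receptor gene on the log2(CPM + 1) scale with its SE in the 3 comparisons (limma; filled points have an adjusted p under 0.05, the dotted line is the median of all genes tested). Erbb2 lay on the higher side in all 3 panels, Erbb3 and Erbb4 on the lower side in both panels with ROS+++, and the small negative change of Fgfr1 in the right panel turned positive with RLE, upper-quartile or TMM factors.

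Read against the median of all genes, the changes from ROS+ to ROS+++ were 3.65 for Erbb2, 2.35 for Fgfr2, 1.96 for Egfr, 1.49 for Fgfr3, -0.03 for Fgfrl1, -1.21 for Fgfr1, -2.74 for Erbb3 and -2.99 for Erbb4. None of the 7 calls in this comparison was lost or changed direction with RLE, upper-quartile or TMM factors.

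Compared per length, Fgfr1 had the highest mean in all classes and the order beneath it changed. In ROS+ the levels were 39.0 ± 8.19 CPM per kb for Fgfr1, 4.75 ± 0.991 for Erbb3, 3.87 ± 1.498 for Fgfrl1, 2.95 ± 0.606 for Erbb4, 2.43 ± 1.14 for Fgfr3, 0.618 ± 0.194 for Egfr, 0.277 ± 0.291 for Fgfr2 and 0.0419 ± 0.0394 for Erbb2. The neighbours from Erbb3 down to Fgfr3 overlapped within their SDs, as did those from Egfr down to Erbb2, while Fgfr1 stood apart from Erbb3 and Fgfr3 from Egfr. In ROS++ Fgfr1 stood at 13.9 ± 2.04 CPM per kb, followed by Fgfrl1 at 9.54 ± 4.59, Fgfr3 at 8.62 ± 1.82, Erbb3 at 6.89 ± 1.25, Erbb4 at 3.05 ± 1.02, Fgfr2 at 2.72 ± 1.47, Egfr at 1.56 ± 0.788 and Erbb2 at 0.501 ± 0.424. Only Erbb3 and Erbb4 were neighbours whose SDs did not overlap, and in replicate 2 Fgfrl1 (15.6 CPM per kb) lay above Fgfr1 (12.3 CPM per kb). In ROS+++ Fgfr1 (12.3 ± 1.65 CPM per kb) was followed by Fgfr3 (6.06 ± 4.84) and Fgfrl1 (2.85 ± 1.69), and Erbb2 (2.10 ± 0.902) and Egfr (2.08 ± 0.9497) stood level above Fgfr2 (1.43 ± 1.58), Erbb3 (0.659 ± 0.726) and Erbb4 (0.341 ± 0.369). No neighbours in the ROS+++ order were further apart than their SDs, and in replicate 4 Fgfr3 (12.7 CPM per kb) came close to Fgfr1 (13.2 CPM per kb). Fgfr1 took 85.2 ± 6.54% of the FGF receptor level in ROS+, 40.8 ± 7.08% in ROS++ and 58.97 ± 15.6% in ROS+++, where Fgfr3 held 5.49 ± 2.64%, 24.9 ± 3.30% and 23.8 ± 10.2%. These orders use all annotated exons of a gene. For Fgfr2 the principal transcript has 3323 bases against 10328 over all exons, so its place among the low receptors depends on that length.

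Of 96 further genes of the pathway, arranged in 8 lists by role, 70 were listed and tested. In ROS++ against ROS+, 15 rose and 12 fell (38.6% called, against 29.6% of all genes). In ROS+++ against ROS+, 21 rose and 30 fell (72.9% against 59.2%), and from ROS++ to ROS+++, 12 rose and 22 fell (48.6% against 39.1%). The balance of directions depended on the scaling, as it did for all genes: from ROS+ to ROS+++, 41.2% of the pathway calls were higher with library totals, 60.4% with RLE factors, 51.1% with upper-quartile and 54.8% with TMM factors, and for all genes 32.5%, 50.6%, 43.9% and 47.9%. From ROS++ to ROS+++ the same shares were 35.3%, 57.1%, 42.9% and 47.2% for the pathway and 25.3%, 52.2%, 42.4% and 46.4% for all genes.

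Most EGF family ligands tested were lower in ROS+++ than in ROS+, and Hbegf rose. Of 6 ligands tested, none was called between ROS++ and ROS+ (29.6% of all genes were), and from ROS+ to ROS+++ 4 fell and 1 rose, where 40.0% of all genes fell and 19.2% rose (median -1.95, against -0.44 for all genes). Against ROS++, 2 fell, 1 rose and 3 were not called in ROS+++, where 29.2% of all genes fell and 9.89% rose. These counts were the same under each scaling. Nrg1, the neuregulin that binds ERBB3 and ERBB4, stood at 23.8 to 39.3 CPM in ROS+ and 15.2 to 58.1 CPM in ROS++, and at 0.286, 0.0982, 0.143 and 3.38 CPM in ROS+++. Its change from ROS+ to ROS+++ was -4.33 ± 0.43 (adjusted p = 1.68e-07). Tgfa, a ligand of EGFR, stood at 115 to 153 CPM in ROS+, 101 to 209 CPM in ROS++ and 23.4, 10.6, 4.38 and 9.05 CPM in ROS+++, a change of -3.70 ± 0.31 from ROS++ (adjusted p = 1.51e-07). Tgfa had its lowest class mean in ROS+++, where Egfr had its highest. Hbegf, a ligand of EGFR and ERBB4, went the other way, with 21.2 to 31.9 CPM in ROS+, 13.5 to 25.5 CPM in ROS++ and 42.3 to 59.7 CPM in ROS+++, so that all ROS+++ libraries lay above all others (1.23 ± 0.23 from ROS++, adjusted p = 0.000373). Egf itself averaged 12.4 ± 2.34, 6.998 ± 1.27 and 4.53 ± 3.64 CPM and fell from ROS+ to ROS+++ (-1.54 ± 0.42, adjusted p = 0.003999).

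**Figure D5:**
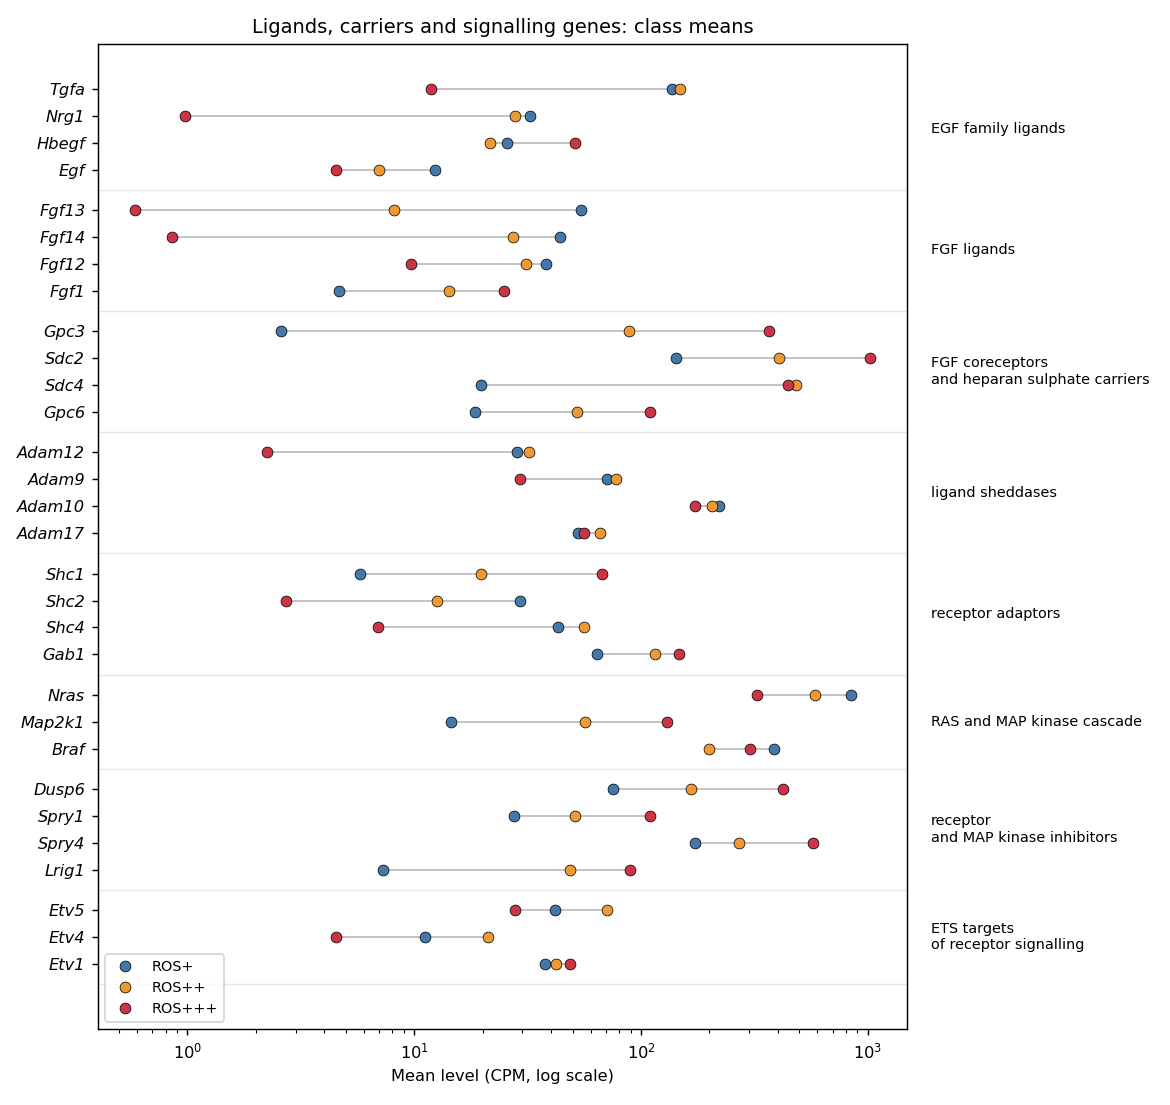
Mean level in CPM (log axis) of the named ligand, carrier, sheddase, adaptor, cascade, inhibitor and target genes in each ROS class (points), by list. Tgfa and Nrg1 were lowest in ROS+++ and Hbegf, Dusp6, Spry1, Spry4 and Lrig1 highest there.

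Few genes of the FGF family were tested. Of 22 such genes 7 were tested, and from ROS+ to ROS+++ 2 rose and 5 fell with library totals, and 2 rose and 3 fell with each of the other scalings. With library totals, 19.2% of all genes rose and 40.0% fell. Fgf1, which binds all FGF receptors, stood at 3.16, 6.48, 4.91, 5.03 and 3.71 CPM for ROS+, 5.604, 13.2, 19.7, 24.99 and 7.42 CPM for ROS++ and 18.7, 18.8, 33.95 and 27.9 CPM in ROS+++. It rose by 2.18 ± 0.39 from ROS+ to ROS+++ (adjusted p = 0.000132), and those classes did not overlap. The largest falls were in Fgf13, Fgf14 and Fgf12, intracellular relatives that bind sodium channels rather than FGF receptors. The counts above include them and are thus not of receptor ligands alone. Fgf13 averaged 54.4 ± 14.3, 8.13 ± 2.46 and 0.585 ± 0.889 CPM (-5.23 ± 0.36 from ROS+ to ROS+++, adjusted p = 1.50e-09), Fgf14 43.8, 27.4 and 0.859 CPM, and Fgf12 38.3, 31.0 and 9.67 CPM.

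Heparan sulphate carriers included the steepest rises. Of 13 coreceptors and carriers tested, 4 rose and 2 fell from ROS+ to ROS++, and 5 rose and 6 fell from ROS+ to ROS+++ (6 and 4 with RLE or TMM factors, 6 and 6 with upper-quartile factors). With library totals, 16.4% of all genes rose and 13.2% fell in the first comparison, and 19.2% rose and 40.0% fell in the second. The share of these 13 genes that fell in ROS+++ was thus near that of all genes. With library totals, those that fell were Sdc1, Gpc1, Gpc5 and the FLRT genes Flrt1, Flrt2 and Flrt3. Flrt3 fell furthest, from 237 ± 54.8 CPM in ROS+ to 4.19 ± 5.95 CPM in ROS+++ (-6.24 ± 0.59, adjusted p = 3.11e-07). Gpc3, a glypican, averaged 2.59 ± 1.91, 88.4 ± 41.7 and 367 ± 16.1 CPM from the lowest to the highest ROS class and rose by 6.86 ± 0.38 over the whole range (adjusted p = 9.73e-11). Sdc2, a syndecan, went from 142 ± 32.9 to 406 ± 88.8 and 1024 ± 69.9 CPM, and Gpc6 from 18.6 ± 3.17 to 52.2 ± 10.97 and 109 ± 17.7 CPM, and both rose at each step (adjusted p of at most 0.000282). Sdc4 rose once, from 19.6 ± 4.63 CPM in ROS+ to 483 ± 206 CPM in ROS++ (4.46 ± 0.31, adjusted p = 2.08e-08), and averaged 446 ± 187 CPM in ROS+++. Of 5 sheddases, the membrane proteases that release EGF family ligands, none was called between ROS++ and ROS+, and from ROS++ to ROS+++ 2 fell under every scaling, Adam12 from 32.1 ± 10.01 to 2.25 ± 2.45 CPM (-3.60 ± 0.41, adjusted p = 3.02e-06) and Adam9 from 77.7 ± 12.4 to 29.1 ± 0.738 CPM. Of all genes, 29.6% were called in the first of these comparisons and 29.2% fell in the second, with library totals. Adam17, the main sheddase of TGF-alpha, averaged 52.7, 65.8 and 55.8 CPM and was called in no comparison with library totals (F-test adjusted p = 0.306). With RLE factors its change from ROS+ to ROS+++ was 0.53 and just passed (adjusted p = 0.0499), against 0.38 and 0.46 with upper-quartile and TMM factors (adjusted p = 0.155 and 0.0824). The sheddases called from ROS+ to ROS+++ were 0 higher and 3 lower with library totals, 2 and 2 with RLE factors, and 0 and 2 with the other scalings. With library totals, 19.2% of all genes were higher and 40.0% lower. Adam10 averaged 220.2 ± 14.8, 206 ± 24.0 and 173 ± 25.5 CPM, and its change of -0.36 from ROS+ to ROS+++ (adjusted p = 0.0170) was not called without ROS+++ replicate 3 or with any other scaling and turned positive with RLE and TMM factors.

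Among adaptors and kinases, single members moved in opposite directions. Of 12 adaptors, 4 rose and 5 fell from ROS+ to ROS+++ under every scaling, against 19.2% and 40.0% of all genes with library totals, so the share that fell was near that of all genes. Shc1, the widely expressed SHC adaptor, went from 5.74 ± 1.59 to 19.6 ± 6.35 and 66.98 ± 8.91 CPM (3.36 ± 0.28 over the range, adjusted p = 1.56e-08). The related Shc2 and Shc4 fell, Shc2 from 29.2 ± 9.11 to 2.72 ± 1.65 CPM between ROS+ and ROS+++ (adjusted p = 1.23e-06) and Shc4 from 56.2 ± 23.7 CPM in ROS++ to 6.92 ± 7.37 CPM in ROS+++ (adjusted p = 6.15e-05). Gab1, a docking protein, averaged 63.8 ± 13.3, 116 ± 27.7 and 147 ± 16.5 CPM and rose from ROS+ to ROS+++ (adjusted p = 2.38e-05). In the RAS and MAP kinase cascade, 2 of 10 rose and 4 fell from ROS+ to ROS+++, also near the shares of all genes (4 and 1 with RLE factors, 2 and 2 with upper-quartile, 2 and 1 with TMM). Map2k1, which encodes MEK1, rose at each step, from 14.5 ± 1.79 to 56.7 ± 19.4 and 130.4 ± 20.6 CPM (3.08 ± 0.24 over the range, adjusted p = 8.75e-09). Nras fell at each step, from 846 ± 105 to 583 ± 33.1 and 324 ± 15.6 CPM (-1.37 ± 0.10 over the range, adjusted p = 1.82e-09). Braf was lower in ROS++ than in ROS+ (198 ± 19.8 against 386 ± 92.1 CPM, adjusted p = 7.97e-05). It rose again to 304 ± 37.9 CPM in ROS+++ (0.61 ± 0.15 from ROS++, adjusted p = 0.00390), and ROS+++ against ROS+ was not called (-0.32 ± 0.15, adjusted p = 0.0758), with a sign that turned with RLE and TMM factors.

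Among negative regulators of the receptors and of MAP kinase, more were called higher than lower in the classes with more ROS. Of 14 tested, 6 rose and 2 fell from ROS+ to ROS++, where 16.4% of all genes rose and 13.2% fell. From ROS+ to ROS+++, 7 rose and 1 fell, where 19.2% of all genes rose and 40.0% fell (median 0.67, against -0.44 for all genes), with 7 to 9 higher and 0 lower with the other scalings. Dusp6, a MAP kinase phosphatase that is itself switched on by the cascade, averaged 75.6 ± 11.001, 167 ± 42.3 and 424 ± 71.5 CPM in the 3 classes and rose by 2.47 ± 0.19 over the range (adjusted p = 4.25e-09). The Sprouty genes Spry1 and Spry4 rose alongside, Spry1 from 27.7 ± 4.24 to 51.3 ± 9.28 and 110.1 ± 16.5 CPM and Spry4 from 174 ± 39.6 to 271 ± 45.2 and 572 ± 57.7 CPM (adjusted p = 6.96e-08 and 7.58e-08 from ROS+ to ROS+++). Lrig1, which promotes the breakdown of EGF receptors, went from 7.27 ± 3.55 to 48.9 ± 24.0 and 89.3 ± 13.3 CPM (3.56 ± 0.38 over the range, adjusted p = 3.76e-07).

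The 3 ETS factors are commonly used as readouts of FGF signalling. Etv5 was highest in ROS++, with 41.8 ± 5.19, 70.9 ± 23.9 and 27.8 ± 10.1 CPM. It rose from ROS+ to ROS++ by 0.69 ± 0.25 (adjusted p = 0.0441, in a range of 0.0159 to 0.119 over all alternatives) and fell from ROS++ to ROS+++ by 1.32 (SE 0.26, adjusted p = 0.000687). Etv4 averaged 11.1 ± 1.12, 21.2 ± 17.1 and 4.496 ± 3.41 CPM and fell from ROS++ to ROS+++ by 1.98 (SE 0.48, adjusted p = 0.00348). Etv1 averaged 37.6 ± 11.04, 42.02 ± 9.05 and 48.8 ± 12.4 CPM and was not called from ROS+ to ROS+++ (0.37 ± 0.24, adjusted p = 0.183), but was called with RLE, upper-quartile and TMM factors (changes of 0.81, 0.66 and 0.74, adjusted p = 0.00625, 0.0232 and 0.0105, in a range of 0.00625 to 0.436 over all alternatives). From ROS+ to ROS+++, 2 of the 3 ETS genes fell with library totals while with each of the other 3 scalings none fell and 1, Etv1, rose. With library totals, 40.0% of all genes fell and 19.2% rose.

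The genes whose profile over the 14 libraries was most like that of each receptor were found by the root mean square difference of centred log2(CPM + 1) values, as a description only, since all points share the libraries and their class structure. The closest match of all was Paip1 to Fgfr1 (0.18), with 454 ± 63.3, 179.9 ± 37.6 and 166 ± 17.5 CPM, followed by Zbtb20 (0.19) and Kdm5b (0.22). For Erbb4 the nearest were Gm21846 (0.31), Susd5 (0.35) and Nav3 (0.35), and for Erbb3 Rad51ap1, Skp2 (both 0.44) and Chaf1b (0.45), all 6 lowest in ROS+++. Erbb2 lay nearest to ENSMUSG00000086864 (0.36), Nfatc4 (0.38) and 9130230N09Rik (0.44), all near 0 in ROS+, and Egfr to Sumf1 (0.39), Cd79b (0.40) and Was (0.41). Cd79b and Was averaged 0.0181 and 0.0274 CPM in ROS+ and at most 1.76 CPM in the other classes. At such levels log2(CPM + 1) understates the change, so their likeness to Egfr is one of that scale. The nearest genes of Fgfr3 were Scara3 (0.40), Ttyh1 (0.42) and Gm7160 (0.43), and those of Fgfrl1 were Rln1 (0.40), E2f6 (0.47) and Ppp1r3e (0.47). Fgfr2 had no close match, with 0.71 to Cbs, 0.74 to Sox9 and 0.79 to Acsbg1.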

How the data were processed

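RNA from GFP-positive dentate gyrus cells was measured in 14 libraries. The authors' deposited table gives log2 values for 15119 genes. STAR, edgeR and the build mm10 appear in the submitters' processing notes, without roles or versions. Counting tool and annotation: not given in the sources used here. Per the labels, cDNA was made by poly-dT priming, template switching and 12 cycles of amplification, which keep no strand record. The deposited log2 values are logs of CPM with a small added prior, and whole reads were recovered from them within 2e-08 reads.

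Reads were rescaled to CPM by library total. Limma-trend 3.58.1 (robust, statmod 1.5.0, R 4.3.3) was fitted to log2(CPM + 1) with a mean per class and 11 residual degrees of freedom, tested on simulated data first. The filter kept 15102 genes and removed 17. Tables and plots used Python 3.11.15, pandas 2.3.3 and matplotlib 3.10.9. Symbols (15060 of 15119 genes) and coordinates came from GENCODE M21 (GRCm38, that is mm10), which may differ from the authors' annotation.

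The receptor genes and the gene lists were chosen with earlier results of these data known. Named were all receptor genes, of each pathway list the 4 genes with the smallest F-test p (all of lists of 3), the 3 genes most alike each receptor gene, and the 2 most abundant genes of each marker list. Nes, Eomes, Neurod2, Igfbpl1, Cspg4, Mien1, Ctbp2, Sdc1, Gpc1, Gpc5, Flrt1, Flrt2 and Flrt3 were added after their values were seen. Genes that this rule names in the cascade list and in a marker list are in part not reported here. Alternatives were a pseudocount of 0.5 CPM, the deposited log2 values, no filter, RLE, upper-quartile and TMM factors, limma-voom on recovered reads, a block on sets of consecutive library numbers, leaving out each library, and only the classes compared. The 26 pairs of replicates differed by more than counting error (chi-square per degree of freedom 34.0 to 162), so no library was counted as a repeat of another.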

Additional observations from a re-analysis of the deposited data

Results flagged for a closer look

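Within classes, 4 of 24 groups of libraries held a value set apart from the rest by Dixon's test at 95%, where chance gives about 1 in 20 groups, or 1.2 in 24. Fgfr2 in ROS+++ replicate 4 stood at 38.96 CPM against 3.29 to 8.88 CPM in the other ROS+++ libraries. Fgfr1 in ROS+++ replicate 3 was lowest at 97.1 CPM, against 127 to 131 CPM in the others. Erbb3 in ROS++ replicate 1 was lowest at 28.1 CPM, against 43.4 to 46.3 CPM. Erbb4 in ROS+ replicate 5 was lowest at 23.5 CPM, against 37.6 to 42.6 CPM.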

How the results depend on the processing

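Of 552 re-computed receptor changes, 503 kept their direction and their side of the threshold, 27 lost and 10 gained a call, and 12 changed sign. The sign changes concerned values near 0. Erbb4 between ROS++ and ROS+ became 0.014 with RLE, 0.0064 with upper-quartile and 0.034 with TMM factors and ranged from -0.16 to 0.24 when 1 library was left out. Fgfr1 between ROS+++ and ROS++ became 0.24, 0.10 and 0.16 with these factors. Adam10 between ROS+++ and ROS+ became 0.082 with RLE and 0.01995 with TMM factors. The cause was not tested. Leaving out 1 library gave 3 to 6 calls among the receptor genes from ROS+ to ROS++, 5 to 7 from ROS+ to ROS+++ and 4 to 6 from ROS++ to ROS+++, and 8 in the F-test each time. The pathway counts ranged from 20 to 27, 40 to 51 and 31 to 36. Limma-voom, the deposited log2 values, no filter, the smaller pseudocount and the other scalings kept every count of calls within 1.5 times. Of 1633 re-computed pathway changes, 1584 kept direction and side, 44 lost and 3 gained a call and 2 changed sign, the 2 for Adam10.

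The labels give no replicate numbers. The title numbers repeat the order of the classes. In their deviations from the class means, 13 pairs of libraries from 1 set correlated by -0.02 to 0.23 (median 0.08, 3 over 0.1). The 52 pairs from different sets correlated by -0.15 to 0.16 (median -0.009, 2 over 0.1). Pairs from 1 set were thus somewhat more alike, so a shared set effect remains possible. Whether a set shares mice or a day is not given, and the sets were used as a block in an alternative only. With a block on these sets the counts of receptor calls were 5, 6 and 4, Egfr gained the call in ROS++ (adjusted p = 0.0456), and Fgfrl1 in ROS++ and Fgfr3 in ROS+++ lost it (0.0587 and 0.0630). Erbb2 in ROS+, with 0 to 14 reads, and Erbb3 and Erbb4 in single ROS+++ libraries are limited by depth.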
